A study of Mus musculus with 24 samples.

Results

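The genes described here are 9 acid-base genes of the intercalated cell of the kidney, taken by their names from a table of 40750 genes: Atp6v1b1, Atp6v0d2, Atp6v1g3, Atp6v1c2, Slc4a1, Slc4a9, Slc26a4, Foxi1 and Aqp6. Each was found once, and all 9 passed the filter on low values. The table gives RPKM, a read density scaled by gene length and by the mapped reads of the library, for 24 RNA-seq libraries from 12 mice. All mice were males of mixed background, 8 to 10 weeks old, heterozygous for Kim1-GCE and for EGFPL10a, and all received tamoxifen 6 hours before and 24 hours after surgery. They had sham surgery, or bilateral ischemia-reperfusion injury with the renal pedicles clamped for 20 minutes and the kidneys taken at day 2, day 7 or day 14, with 3 mice in each of these 4 groups. Kidney homogenate was passed over beads carrying antibody against GFP, which gave a bound fraction (ribosome-associated RNA of cells that carry EGFP-L10a), and the remainder gave an unbound fraction that stands for total kidney. There were thus 8 groups of 3 libraries. Kim1, the gene that directs the Cre, is known from injured proximal tubule, so that intercalated cells are not the cells the pull-down was aimed at.

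Intercalated cells are scattered among the principal cells of the collecting duct. They carry a vacuolar proton pump (V-ATPase) that moves acid across one membrane, paired with an anion exchanger that moves bicarbonate across the other. Type A cells secrete acid and use the exchanger AE1, type B cells secrete bicarbonate and use pendrin, and the forkhead factor Foxi1 is required in mice for intercalated cells to form and to express pump and exchanger genes.

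The members lie on several chromosomes in the GENCODE M21 annotation of GRCm38; no source used here names the build behind the deposited table. Atp6v1b1 lies at chr6:83742990-83758855 on the plus strand, Atp6v0d2 at chr4:19876841-19922605 on the minus strand, Atp6v1g3 at chr1:138273738-138289462 on the plus strand and Atp6v1c2 at chr12:17284721-17329359 on the minus strand. Slc4a1 lies at chr11:102348824-102366203 on the minus strand, Slc26a4 at chr12:31519827-31559969 on the minus strand, Foxi1 at chr11:34204338-34208089 on the minus strand and Aqp6 at chr15:99601400-99605477 on the plus strand.

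Promoter windows of 300 bases, 250 before and 50 after the start, were matched for 6 of the 9 in RefSeq's GRCm38.p6 table, and the forkhead core TGTTTA was searched in them on both strands because Foxi1 is itself a forkhead factor. It occurred in 1 of the 6, Atp6v1b1, where the match begins 98 bases before the start; 13.4% of all 32851 windows hold it. The 250 bases before the start are shown for 3 genes, Atp6v1b1 because it holds the match, and Atp6v1g3 and Slc26a4 because they are the members with a window that fell in unbound RNA at day 2. They lie at chr6:83742767-83743016 (plus strand) for Atp6v1b1, chr1:138273488-138273737 (plus strand) for Atp6v1g3 and chr12:31559985-31560234 (minus strand) for Slc26a4, each written 5′ to 3′ with the match in capitals.
Atp6v1b1: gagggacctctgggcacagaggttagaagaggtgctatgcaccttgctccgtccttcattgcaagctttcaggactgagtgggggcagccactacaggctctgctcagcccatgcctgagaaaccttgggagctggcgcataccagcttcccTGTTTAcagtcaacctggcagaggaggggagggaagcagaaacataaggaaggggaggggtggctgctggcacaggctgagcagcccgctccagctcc
Atp6v1g3: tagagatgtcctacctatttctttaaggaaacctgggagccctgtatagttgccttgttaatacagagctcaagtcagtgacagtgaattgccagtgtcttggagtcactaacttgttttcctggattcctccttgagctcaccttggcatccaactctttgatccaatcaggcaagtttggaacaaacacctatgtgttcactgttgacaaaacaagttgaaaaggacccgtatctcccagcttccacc
Slc26a4: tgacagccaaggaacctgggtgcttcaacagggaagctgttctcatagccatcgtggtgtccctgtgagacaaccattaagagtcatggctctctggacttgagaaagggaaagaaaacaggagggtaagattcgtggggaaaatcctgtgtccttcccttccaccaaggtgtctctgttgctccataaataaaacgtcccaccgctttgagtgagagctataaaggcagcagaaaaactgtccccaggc

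Differences are given as log2 folds from limma on log2(RPKM + 0.5), with all 24 libraries in 1 fit, and the words rose and fell are kept for an adjusted p (over 13721 tested genes) under 0.05. Folds on this scale understate the change of genes with low RPKM. Depths inferred from the spacing of low values were 15.72 to 24.65 in units of 1e6 reads per library. Mouse 3 of day 14 differed from the rest of its group in either fraction: across genes its libraries correlated with the other day 14 libraries at 0.893 and 0.897 in bound RNA and at 0.933 and 0.941 in unbound RNA, where the other pair reached 0.975 in bound and 0.98 in unbound RNA. Results that use day 14 are therefore given without it too where that changes a call. It was not the only departure. The third bound sham library correlated with the others of its group at 0.929 and 0.93, where the other pair reached 0.972. Bound day 2 libraries correlated with each other at 0.907 to 0.951. For those libraries only the fits that left out each library in turn were made. The typical gene was higher than in sham, by a median log2 fold of 0.13 to 0.22, and after rescaling of the libraries it was between -0.04 and 0.01, so folds stand against that shift. The RPKM of all genes summed to 355825 to 398894 in bound sham libraries. In bound day 7 libraries it was 474334 to 492356, and in unbound sham libraries 495850 to 514299. The first bound day 2 library, at 361321, was like bound sham. The part of this difference between libraries in the folds was not tested. The comparisons of day 2, day 7 and day 14 with sham share the sham libraries of their fraction. In whole-kidney RNA, fewer intercalated cells and less of an RNA per cell cannot be told apart.

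All 9 genes were detected across the series, with at least 1 RPKM in 24 of 24 libraries for 8 of them and in 23 for Slc4a1. RPKM is scaled by gene length, so levels can be set beside each other. In sham unbound RNA Atp6v1g3, a subunit of the pump's peripheral stalk, was by far the most abundant at 100.3 ± 20.2 RPKM (SD, n = 3 here and below). It was followed by Atp6v0d2, a subunit of the membrane sector, at 13.2 ± 2.61 RPKM, then by Slc26a4 at 10.7 ± 3.09 RPKM, Atp6v1c2 at 10.5 ± 4.13 RPKM, Aqp6 at 9.91 ± 3.92 RPKM, Atp6v1b1 at 9.43 ± 2.25 RPKM, Foxi1 at 8.59 ± 3.29 RPKM and Slc4a9 at 7.18 ± 0.669 RPKM. From Atp6v0d2 down to Slc4a9 each gene's libraries overlapped those of its neighbour in this order. Slc4a1 was lowest at 4.59 ± 0.957 RPKM, with all of its sham libraries below those of Slc4a9.

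**Figure D1:**
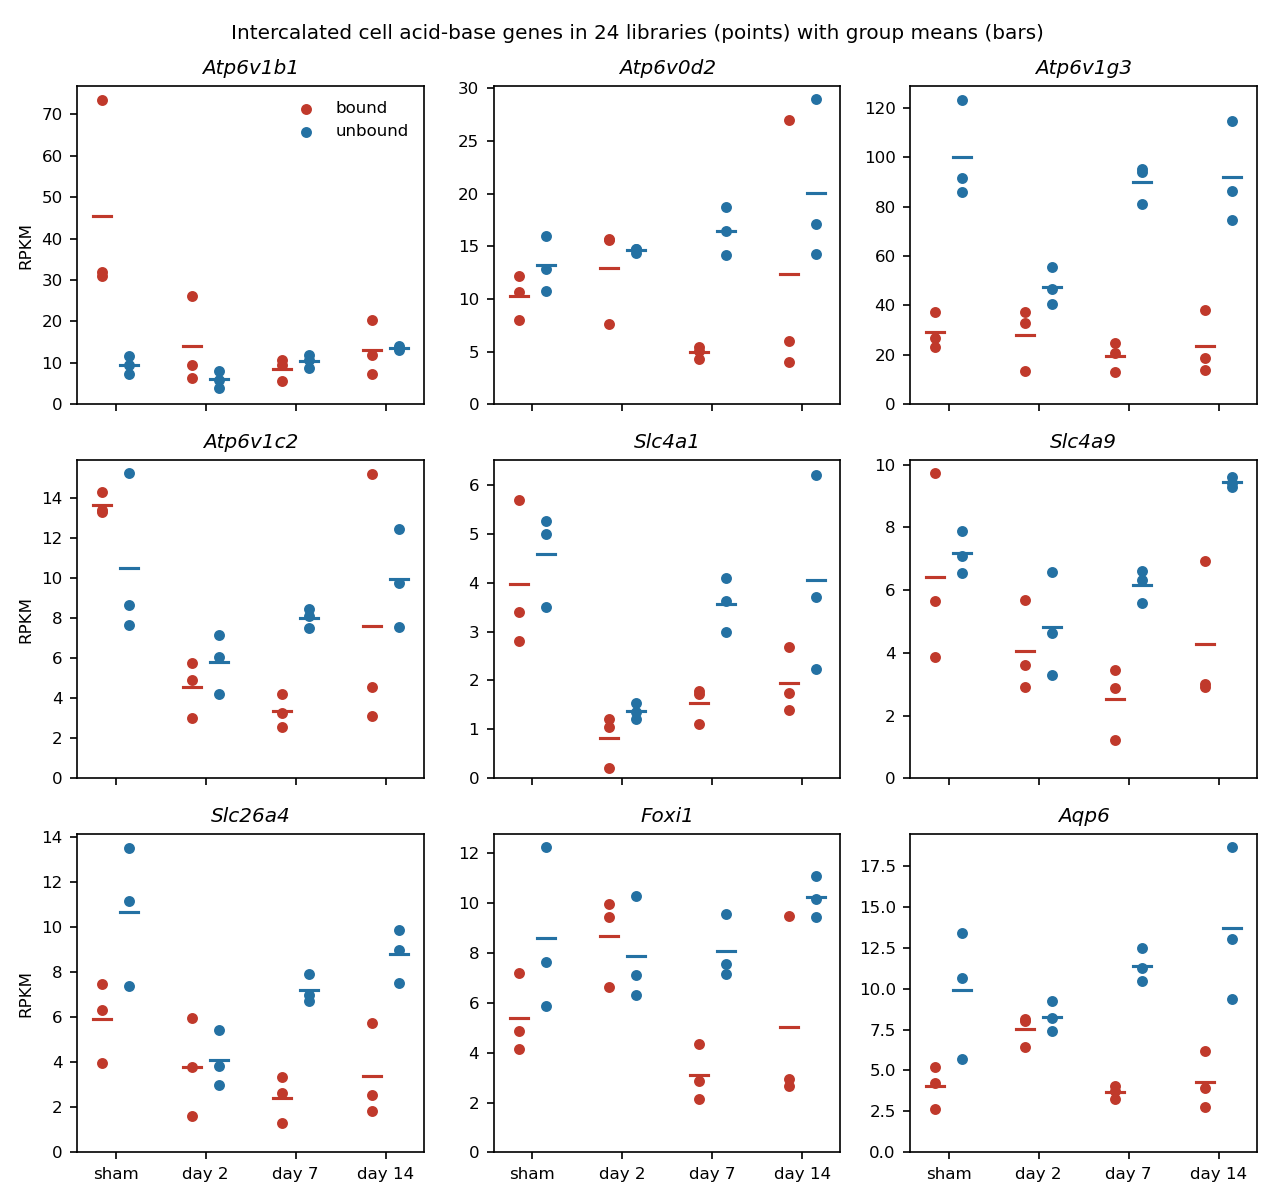
RPKM of the 9 genes (vertical axes, each on its own scale from 0) in kidneys after sham surgery and on days 2, 7 and 14, with bound libraries in red, unbound libraries in blue, 1 point per library and a bar at each group mean. Slc4a1 at day 2 is low in all 6 libraries, at 0.21 to 1.54 RPKM, and Atp6v1b1 is high in the 3 sham bound libraries, at 31.1 to 73.4 RPKM.

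In unbound RNA, 3 of the 9 genes fell at day 2 against sham and none rose, where 5.04% of all tested genes fell. They were both of the exchangers that mark the type A and type B cell, Slc4a1 and Slc26a4, and the pump subunit gene Atp6v1g3. The median log2 fold of the 9 was -0.65, and that of all tested genes was 0.20. Counted by overlap instead of the test, 4 of the 9 (these 3 and Atp6v1c2) had all day 2 libraries below all sham libraries, which held for 13.3% of all genes. After either rescaling of the libraries the same number of members fell, with 7.92% of all genes falling after median-ratio rescaling and 7.07% when quantiles were equalised.

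Slc4a1, which encodes the anion exchanger AE1 of red cells and, in a shorter kidney form, of the basolateral membrane of type A cells, had 1.54, 1.35 and 1.21 RPKM in the day 2 unbound libraries, against 3.49, 4.99 and 5.27 RPKM in the sham unbound libraries. The groups did not overlap. The log2 fold was -1.43 (SE 0.34, adjusted p = 0.00733), and the call was kept in all 33 alternative settings tried. Because red cells express Slc4a1, the erythroid list was read beside it: the summed RPKM of its 10 genes in the table was 59.8, 207 and 91.7 in day 2 unbound libraries, against 44.5, 735 and 52.7 in sham unbound libraries. The sham library with 735 was not the one with the most Slc4a1. None of the 6 tested erythroid genes passed the limma test in this comparison. None of the 6 had an unadjusted p under 0.05, which 4137 of all 13721 tested genes had. Their median log2 fold was -0.50, and 5 of the 6 had a fold below 0. The red cell gene Rhag was at 0 in all 6 of these libraries, while the sums show RNA of other listed erythroid genes in each. The part of red cells in the Slc4a1 values was not tested.

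Slc26a4, which encodes pendrin, the apical chloride-bicarbonate exchanger of type B cells, had 3.00, 5.44 and 3.83 RPKM in day 2 unbound libraries, against 7.39, 13.5 and 11.2 RPKM in sham unbound libraries. The groups did not overlap (log2 fold -1.28, SE 0.39, adjusted p = 0.0288). The call was lost in 5 of 33 settings, among them without any filter and without the second or the third sham library. Slc4a9, on chromosome 18, which encodes AE4, an exchanger of the basolateral membrane of type B cells, had 4.63, 3.30 and 6.56 RPKM in day 2 and 6.56, 7.88 and 7.09 RPKM in sham unbound libraries. The highest day 2 library reached the lowest sham library, and the fold of -0.57 (95% interval -1.29 to 0.15) did not pass the test.

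Among the pump genes, Atp6v1g3 had 40.5, 55.5 and 46.7 RPKM in day 2 unbound libraries, against 91.5, 86.0 and 123 RPKM in sham unbound libraries. The groups were well apart (log2 fold -1.06, SE 0.35), yet the adjusted p of 0.0463 lay close to the threshold and the call was lost in 18 of 33 settings, with adjusted p-values from 0.00262 to 0.163 over them. Atp6v1c2, a subunit of the catalytic sector's stalk, had 4.22, 7.16 and 6.07 RPKM in day 2 unbound libraries, against 7.68, 8.63 and 15.3 RPKM in sham ones (log2 fold -0.77, adjusted p = 0.178). Atp6v1b1, the B1 subunit of the catalytic sector, whose loss causes distal renal tubular acidosis with deafness in humans, had a log2 fold of -0.65 with overlapping groups (adjusted p = 0.317). Atp6v0d2 had 14.7, 14.7 and 14.4 RPKM in day 2 and 12.9, 10.8 and 16.0 RPKM in sham unbound libraries (log2 fold 0.16, 95% interval -0.74 to 1.06).

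The regulator and the channel of the set did not pass the test at day 2. Foxi1 had 7.11, 10.3 and 6.29 RPKM in day 2 unbound libraries, against 5.89, 7.64 and 12.2 RPKM in sham unbound libraries, with a log2 fold of -0.08 and a 95% interval from -0.82 to 0.65. Aqp6, an aquaporin of intracellular vesicles of intercalated cells that also passes anions, had 9.27, 7.44 and 8.18 RPKM in day 2 unbound libraries, against 5.68, 13.4 and 10.7 RPKM in sham ones, with a log2 fold of -0.17 and an interval from -0.79 to 0.45. In both genes the groups overlapped. The lower bounds of these intervals lie above the fitted fold of Slc4a1, but the folds of the genes were not tested against each other.

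**Figure D2:**
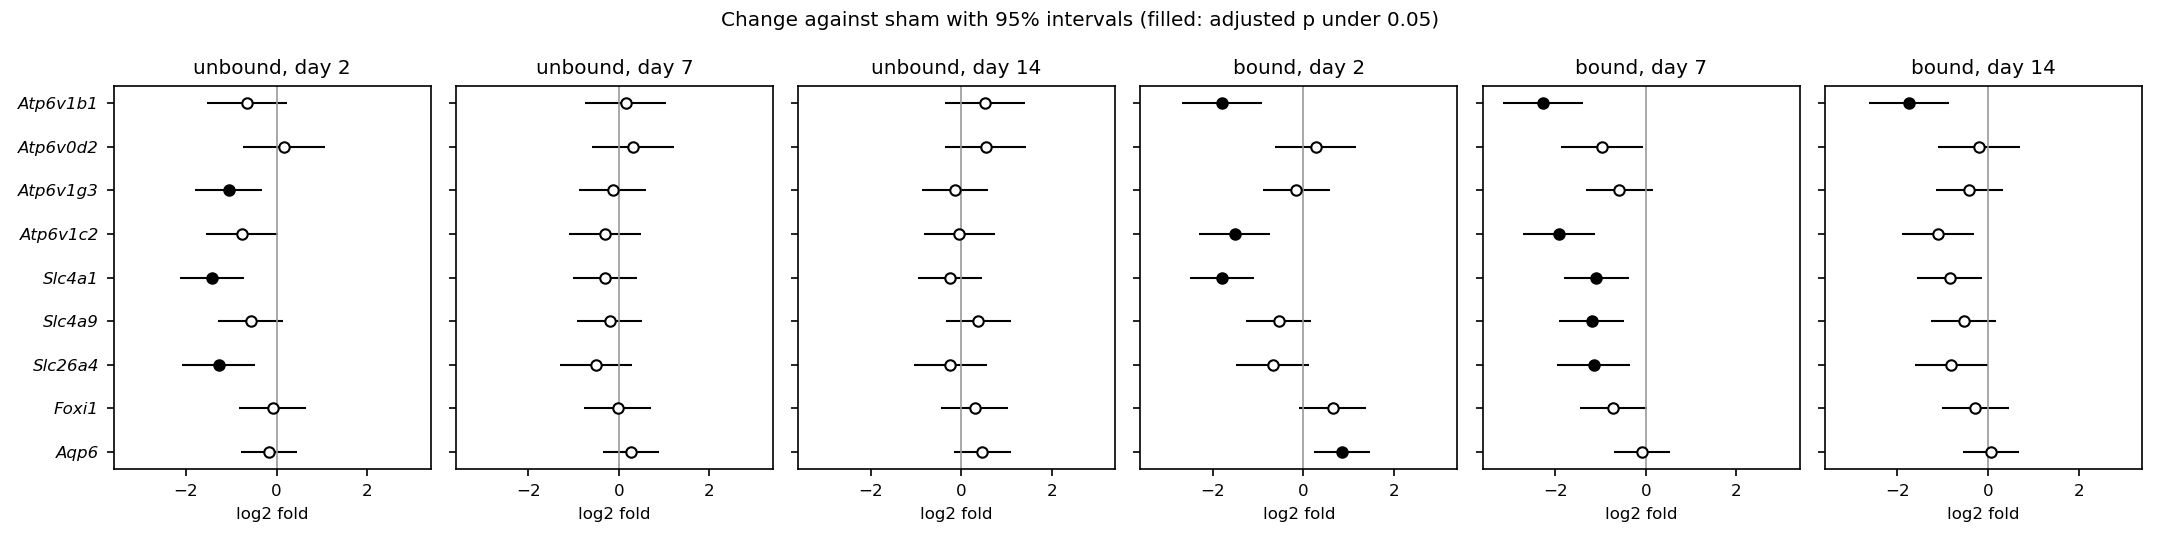
Log2 fold (horizontal axes) of each gene at day 2, day 7 and day 14 against sham, with unbound RNA in the 3 panels on the left and bound RNA in the 3 on the right; points are limma estimates, lines are 95% intervals and filled points have an adjusted p under 0.05. Filled points lie below 0 for 3 genes in unbound RNA at day 2, and in bound RNA for 3 genes at day 2, 5 at day 7 and 1 at day 14, with Aqp6 in bound RNA at day 2 the single filled point above 0.

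By day 7 and day 14 none of the 9 genes differed from sham in unbound RNA by the limma test, and none had an unadjusted p under 0.05. Over all 13721 tested genes 1.09% passed at day 7 and 1.23% at day 14, and 2097 and 2820 had an unadjusted p under 0.05. Slc4a1 was at 3.62, 4.10 and 2.99 RPKM at day 7 (log2 fold -0.31, 95% interval -1.02 to 0.40) and at 3.70, 6.21 and 2.24 RPKM at day 14 (-0.24, interval -0.95 to 0.47). Slc26a4 was at 7.90, 6.99 and 6.74 RPKM at day 7 and at 8.98, 9.87 and 7.53 RPKM at day 14, with folds of -0.50 (interval -1.30 to 0.30) and -0.24 (interval -1.04 to 0.57). Atp6v1g3 was at 95.3, 94.1 and 81.1 RPKM at day 7 and at 115, 86.2 and 74.6 RPKM at day 14, with folds of -0.14 and -0.13. At both times these libraries overlapped those of sham in each of the 3 genes.

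Day 14 was also set against day 2, a comparison that uses no sham library. All 9 fitted folds in unbound RNA were above 0, with a median of 0.93 where the median of all genes was 0.06. In 7 of the 9, all but Atp6v0d2 and Foxi1, every day 14 library was above every day 2 library, which held for 14.7% of all genes. Slc4a1 alone passed the test (log2 fold 1.19, SE 0.34, adjusted p = 0.0453), where 2.19% of all genes rose. Its call was lost in 21 of 34 settings, both rescalings included, with adjusted p-values from 0.00824 to 0.239. Atp6v1b1 had 13.1, 14.0 and 13.6 RPKM at day 14, against 5.88, 8.12 and 3.87 RPKM at day 2 (log2 fold 1.17, adjusted p = 0.132). Slc4a9 had 9.28, 9.60 and 9.43 RPKM at day 14, against 4.63, 3.30 and 6.56 RPKM at day 2 (0.94, adjusted p = 0.134). The day 14 unbound libraries of Atp6v1b1 and of Slc4a9 were also all above the sham ones, though those folds of 0.52 and 0.38 did not pass. How many of all genes had no overlap there was not counted.

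In bound RNA at day 2, 3 of the 9 genes fell against sham (6.48% of all genes fell): Slc4a1, Atp6v1b1 and Atp6v1c2. Slc4a1 had 1.06, 1.21 and 0.21 RPKM in day 2 bound libraries, against 2.81, 5.69 and 3.39 RPKM in sham bound libraries (log2 fold -1.80, SE 0.34, adjusted p = 0.001), with no overlap. The summed erythroid RPKM was 18.2, 102 and 37.3 in day 2 bound libraries, against 10.7, 166 and 9.61 in sham bound libraries. In each of these groups, and in bound RNA at day 14, the library with the highest sum had the most Slc4a1. At day 7 it did not. The part of red cells in the bound Slc4a1 values was not tested. Atp6v1b1 had 26.2, 9.50 and 6.27 RPKM in day 2, against 32.0, 31.1 and 73.4 RPKM in sham bound libraries (log2 fold -1.80, SE 0.43, adjusted p = 0.0057). The first day 2 library was close to the sham range and the others were far below it. Atp6v1c2 had 4.90, 5.78 and 3.03 RPKM in day 2, against 14.3, 13.3 and 13.4 RPKM in sham bound libraries (log2 fold -1.52, SE 0.38, adjusted p = 0.00781), and these groups did not overlap.

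Aqp6 was the 1 member that rose in bound RNA at day 2 (13.3% of all genes rose). It had 8.00, 6.46 and 8.16 RPKM in day 2 bound libraries, against 2.67, 4.25 and 5.20 RPKM in sham bound libraries, with no overlap (log2 fold 0.86, SE 0.30, adjusted p = 0.0461). The call was lost in 23 of 33 settings, both rescalings included, with adjusted p-values from 0.0245 to 0.215. Foxi1 had 9.95, 9.43 and 6.62 RPKM in day 2, against 4.14, 4.86 and 7.19 RPKM in sham bound libraries; its fold of 0.65 (95% interval -0.09 to 1.39) did not pass.

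At day 7, 5 of the 9 genes fell in bound RNA, where 7.55% of all genes fell (12.9% with 7 members after median-ratio rescaling, 11.8% with 5 members after quantile normalization). All 9 fitted folds were below 0, with a median of -1.09. Atp6v1b1 had 10.7, 9.36 and 5.64 RPKM at day 7 (log2 fold -2.27, SE 0.43, adjusted p = 0.00122) and Atp6v1c2 had 2.55, 4.21 and 3.26 RPKM (-1.91, SE 0.38, adjusted p = 0.00181), each in all 33 settings and with no overlap with sham. The 3 exchanger genes fell as well: Slc4a1 to 1.73, 1.79 and 1.12 RPKM (-1.09, adjusted p = 0.0259), Slc4a9 to 3.45, 2.89 and 1.23 RPKM, against 5.67, 9.72 and 3.88 RPKM in sham bound libraries (-1.19, adjusted p = 0.0176), and Slc26a4 to 2.64, 3.34 and 1.32 RPKM, against 3.95, 7.49 and 6.30 RPKM in sham bound libraries (-1.15, adjusted p = 0.0352). These 3 calls were lost in 3 to 6 of 33 settings, among them without the second sham or without the third day 7 bound library. Atp6v0d2 (-0.97), Atp6v1g3 (-0.59), Foxi1 (-0.72) and Aqp6 (-0.08) did not pass.

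At day 14, 1 of the 9 genes, Atp6v1b1, remained below sham in bound RNA, where 4.58% of all genes fell. It had 11.9, 7.29 and 20.4 RPKM at day 14, all below the lowest sham library at 31.1 RPKM (log2 fold -1.75, SE 0.43, adjusted p = 0.0123); without the second day 14 bound library it did not pass. The count rested on the third day 14 mouse. Its bound library had 15.2 RPKM of Atp6v1c2, against 3.14 and 4.58 RPKM in the other day 14 libraries, 27.0 RPKM of Atp6v0d2, against 5.98 and 3.98 RPKM, and 9.47 RPKM of Foxi1, against 2.93 and 2.65 RPKM. Without this mouse in both fractions 5 members were below sham (9.77% of all genes): Atp6v1b1 (-2.11), Atp6v0d2 (-0.98), Atp6v1c2 (-1.72), Slc4a1 (-1.06) and Slc26a4 (-1.22). After median-ratio rescaling with all mice the count was 3, with 8.44% of all genes falling. Against day 2 none of the 9 passed the limma test in bound RNA at day 14, where 6.64% of all genes passed. An unadjusted p under 0.05 was found for 3 members and for 2767 of all 13721 tested genes. Without the third mouse 3 members were lower than at day 2 (10.9% of all genes): Atp6v0d2 (-1.25), Foxi1 (-1.46) and Aqp6 (-1.07).

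Markers of the principal cell, the neighbour of the intercalated cell in the collecting duct, also differed from sham in bound RNA. In sham 6 of 10 tested principal cell genes were higher in bound than in unbound RNA, among them Aqp2, the vasopressin-regulated water channel (2.71), and Fxyd4 (2.62), and at day 7 in bound RNA 9 of the 10 were below sham, where 14.6% of all genes were higher in bound RNA in sham and 7.55% were below sham at day 7. The summed RPKM of the 11 listed genes was 269, 230 and 160.4 in day 7 bound libraries, against 305, 610 and 2259 in sham bound libraries. The sham library with the highest sum was also the one with 73.4 RPKM of Atp6v1b1. Without that library the Atp6v1b1 fold in bound RNA was -1.40 at day 2, -1.87 at day 7 and -1.34 at day 14, and each still passed. The day 7 bound libraries had the same order in the sum and in Atp6v1b1, but those of day 2 and day 14 did not. The third day 2 bound library had the highest sum of its group (833) and the lowest Atp6v1b1 (6.27 RPKM). The third day 14 bound library had the lowest sum of its group (206) and the highest Atp6v1b1 (20.4 RPKM). In unbound RNA the sums lay between 167 and 263 in all groups. The part of collecting duct RNA in the bound values was not tested further.

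Bound RNA was then set against unbound RNA of the same time. The numbers pair the fractions of a mouse, so a fit with the mouse as a replicate block is given where it changes a call. In sham 1 member was higher in bound RNA (14.6% of all genes were higher), and 2 were lower (12.9% of all genes were lower). The member that was higher was Atp6v1b1, with 32.0, 31.1 and 73.4 RPKM in bound, against 7.20, 9.38 and 11.7 RPKM in unbound sham libraries (log2 fold 2.12, SE 0.43, adjusted p = 0.00123). It was so in all 33 settings, and without the third sham bound library the fold was 1.71. Those lower in bound RNA were Atp6v1g3, with 26.9, 23.3 and 37.3 RPKM in bound, against 91.5, 86.0 and 123 RPKM in unbound libraries (-1.78, adjusted p = 0.00111), and Aqp6, with 2.67, 4.25 and 5.20 RPKM in bound, against 5.68, 13.4 and 10.7 RPKM in unbound libraries (-1.16, adjusted p = 0.00675). None of these groups overlapped.

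At day 2 no member differed between the fractions by the limma test, where 1.68% of all genes did. An unadjusted p under 0.05 was found for 2 members and for 2423 of all 13721 tested genes. At day 7, 4 of the 9 were lower in bound RNA, where 1.32% of all genes were. They were Atp6v1g3 with 20.9, 24.8 and 12.9 RPKM in bound, against 95.3, 94.1 and 81.1 RPKM in unbound libraries (-2.22, SE 0.35, adjusted p = 0.00115), Aqp6 with 3.74, 4.08 and 3.25 RPKM in bound, against 10.4, 12.5 and 11.3 RPKM in unbound libraries (-1.51, SE 0.30, adjusted p = 0.00882), Slc26a4 (-1.46, adjusted p = 0.0474) and Atp6v0d2 (-1.63, adjusted p = 0.0489). By overlap, 8 of the 9, all but Atp6v1b1, had every bound library below every unbound library, which held for 19.5% of all genes. The calls of Slc26a4 and Atp6v0d2 were lost in 19 and 20 of 33 settings. With the replicate block 6 members were lower (7.11% of all genes), since Slc4a9 (-1.22, adjusted p = 0.0278) and Foxi1 (-1.28, adjusted p = 0.00596) passed as well; over all settings their adjusted p-values ran from 0.0278 to 0.343 and from 0.00596 to 0.245.

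At day 14, 2 of the 9 were lower in bound RNA, where 0.474% of all genes were: Atp6v1g3 with 18.7, 13.7 and 38.2 RPKM in bound, against 115, 86.2 and 74.6 RPKM in unbound libraries (-2.05, adjusted p = 0.00393), and Aqp6 with 3.91, 2.80 and 6.19 RPKM in bound, against 13.0, 18.6 and 9.37 RPKM in unbound libraries (-1.57, adjusted p = 0.00881). With the replicate block 5 members passed (1.82% of all genes), with Atp6v0d2 (-1.09), Slc26a4 (-1.38) and Foxi1 (-1.17) added. Without the third day 14 mouse 6 passed (0.547% of all genes), with these 3 and Atp6v1c2 (-1.42) added. Atp6v1g3 and Aqp6 were thus below their unbound level in bound RNA in sham, at day 7 and at day 14.

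**Figure D3:**
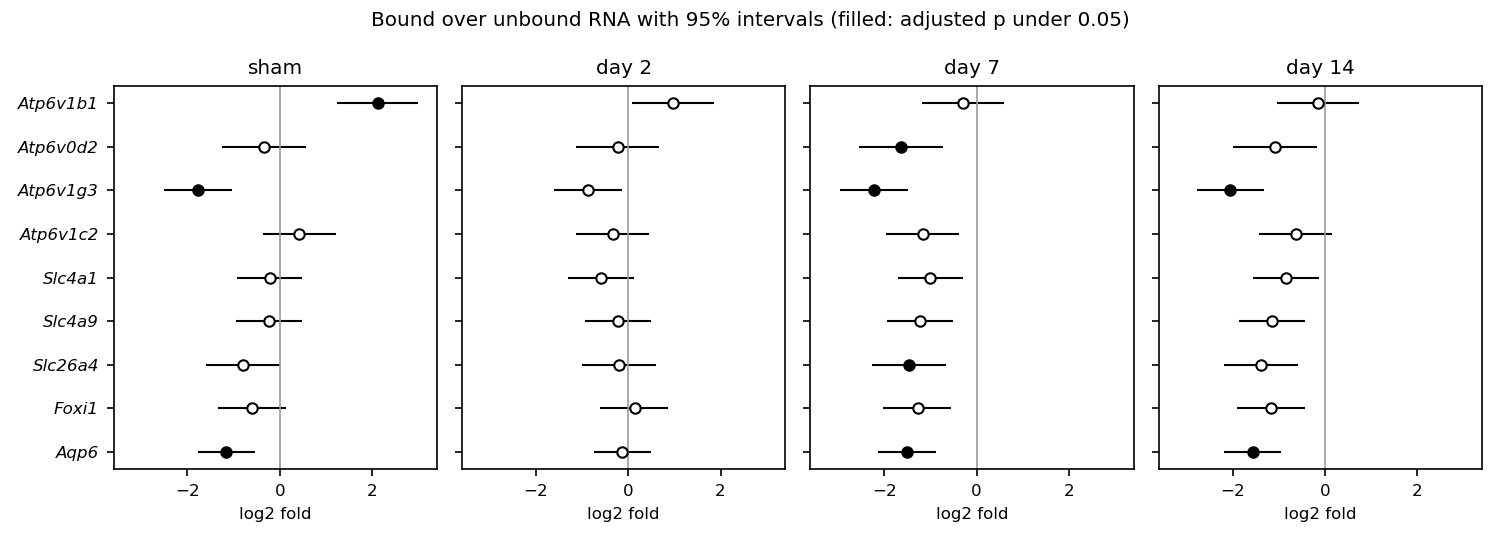
Log2 fold of bound over unbound RNA (horizontal axes) for each gene in kidneys after sham surgery and on days 2, 7 and 14; points are limma estimates, lines are 95% intervals and filled points have an adjusted p under 0.05. Atp6v1b1 is at 2.12 in sham and at -0.30 and -0.15 at day 7 and day 14, and Atp6v1g3 is below 0 in every panel.

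Whether the change against sham differed between bound and unbound RNA was tested as an interaction. None of the 9 passed the limma test at day 2 (0% of all genes passed), day 7 (0.146%) or day 14 (0.197%). With an unadjusted p under 0.05 there was 1 member at day 2, 3 at day 7 and 1 at day 14. Of all 13721 tested genes 758, 2320 and 2267 had such a p. The member farthest from 0 was Atp6v1b1, at -2.42 (SE 0.60, adjusted p = 0.107) at day 7 and -2.27 (SE 0.60, adjusted p = 0.106) at day 14. With the mouse as a replicate block it passed at both times, as 1 of 9 members each (5.26% of all genes at day 7, 6.28% at day 14). Without the third day 14 mouse 2 of 9 passed at day 14, Atp6v1b1 (-2.63) and Atp6v1c2 (-1.85), where 5.04% of all genes did. The calls of Atp6v1c2 and Atp6v1b1 in bound RNA at day 2 are accordingly not shown to differ from their change in unbound RNA at that time.

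Each of the 4 pump members has a broadly expressed paralog that fills the same place in the complex, so the share of the member in the pair's summed RPKM was followed. Atp6v1g3 made up 19.5% ± 2.45 of its pair with Atp6v1g1 in day 2 unbound libraries, against 36.3% ± 3.92 in sham unbound libraries. The ranges of 16.7% to 21.3% and 32.7% to 40.5% did not overlap. The share was 34.1% ± 3.09 at day 7 and 35.3% ± 5.88 at day 14. In bound RNA it was 27.8% ± 7.00 in sham, 18.2% ± 3.34 at day 2, 10.4% ± 3.48 at day 7 and 14.4% ± 10.6 at day 14. In each of the other pairs the day 2 unbound libraries overlapped the sham ones. The mean share was 8.11% at day 2 against 12.6% in sham for Atp6v1b1 and 6.74% against 10.4% for Atp6v1c2. For Atp6v0d2 it was higher at day 2, at 12.8% against 10.7%.

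Atp6v1c2 held a smaller share of its pair with Atp6v1c1, at 2.43% ± 0.45 in day 7 bound libraries, against 17.2% ± 0.71 in sham bound libraries. At day 2 it was 5.88% ± 0.65, and at day 14 it was 3.86%, 4.77% and 15.5% in the 3 bound libraries, the highest in the third mouse. In bound RNA at day 7 both sides of the ratio moved, since Atp6v1c1 rose (log2 fold 1.01, adjusted p = 0.00433), as did Atp6v1g1 (1.15, adjusted p = 0.0203). Atp6v1b1 made up 10.2% ± 3.28 of its pair with Atp6v1b2 in day 7 bound libraries, against 23.4% ± 13.1 in sham bound libraries. Atp6v1b2 itself fell there (-0.98, adjusted p = 0.00322). Atp6v0d2 made up 3.79% ± 0.84 of its pair with Atp6v0d1 in day 7 and 7.97% ± 2.44 in sham bound libraries, without overlap.

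**Figure D4:**
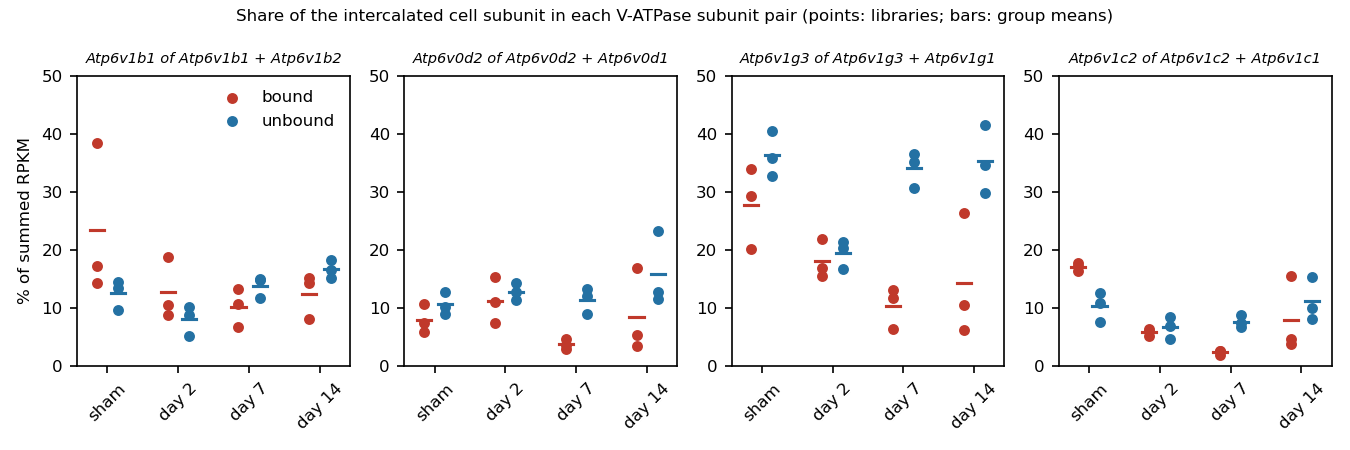
Share of the intercalated cell subunit in the summed RPKM of each V-ATPase subunit pair (vertical axes, percent) in kidneys after sham surgery and on days 2, 7 and 14, with bound libraries in red, unbound libraries in blue, 1 point per library and a bar at each group mean. The Atp6v1g3 share in unbound RNA is 16.7% to 21.3% at day 2 and 29.8% to 41.5% in the other 3 groups.

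Of the 18 broadly expressed subunit genes of the same pump, none fell and 1 rose (Atp6v0a1, 0.72, adjusted p = 0.0268) in unbound RNA at day 2, where 5.04% of all genes fell and 9.76% rose, and their median log2 fold was -0.07. In bound RNA at day 7, 4 were higher and 2 lower than in sham, where 15.2% of all genes were higher and 7.55% lower. These counts lie near those of all genes, and the list was not tested against the 9 members. Atp6v1a, the catalytic A subunit (-1.35, adjusted p = 0.00206), fell with Atp6v1b2, while Atp6v0e2 (1.83) rose. Atp6v1a and Atp6v1b2 were also the 2 of the 18 that were higher in bound than in unbound RNA in sham (1.60 and 1.19), as Atp6v1b1 was, where 14.6% of all genes were higher. Another 4 of the 18 were lower there (12.9% of all genes were lower), and the median log2 fold of the 18 was -0.43. Atp6v1a had 186, 178 and 169 RPKM in day 7, against 599, 457 and 342 RPKM in sham bound libraries.

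Other genes known from intercalated cells were counted from a list of 21, of which 17 were tested. In unbound RNA at day 2, 2 fell (5.04% of all genes fell) and none rose: Bsnd, the barttin subunit of chloride channels (-1.15, adjusted p = 0.0118), and Hmx2, a homeobox factor (-0.90, adjusted p = 0.0443). Bsnd, which the thick ascending limb also expresses, had 6.57, 5.82 and 7.18 RPKM in day 2, against 15.1, 17.5 and 12.9 RPKM in sham unbound libraries. At day 14 against day 2 in unbound RNA 3 rose (2.19% of all genes rose), Hmx2 (1.43), Bsnd (1.13) and Dmrt2 (1.23), a transcription factor gene. Rhcg, an ammonia channel gene, had 8.86, 8.29 and 7.82 RPKM in day 2, against 15.0, 16.4 and 27.1 RPKM in sham unbound libraries, without overlap but without passing the test. In bound RNA at day 7 the count was 5 lower (7.55% of all genes) and none higher, among them Tfcp2l1, a factor of collecting duct development (-1.27), Bsnd (-1.35) and Rhcg (-1.93, where 1 sham bound library had 167 RPKM and the others 16.6 and 25.7 RPKM). At day 7 and day 14 none of the 17 differed from sham in unbound RNA by the limma test, with none and 4 of them at an unadjusted p under 0.05. Of all 13721 tested genes 2097 and 2820 had such a p.

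The proximal tubule, which reclaims filtered bicarbonate and makes ammonia, was represented by 12 acid-base genes, 11 of them tested. In unbound RNA at day 2, 4 of these fell (5.04% of all genes fell): the carbonic anhydrase genes Car4 (-2.05) and Car14 (-2.28), the phosphate transporter gene Slc34a1 (-2.09) and the sodium-proton exchanger gene Slc9a8 (-2.19). Of the 11, 2 rose (9.76% of all genes rose). They included Glud1 (0.93), which encodes the ammonia-releasing enzyme glutamate dehydrogenase and was named after its values were seen. The median log2 fold of the 11 was 0.00, with 6 below 0 and 5 above. The fitted falls of the 4 called genes were larger than that of Slc4a1 in the same libraries (-1.43), but the folds were not tested against each other. At day 14 in unbound RNA Car4 was still lower (-1.29), as 1 of the 11, where 0.248% of all genes were lower. The other 10 were not called, and neither were the 9 intercalated genes. The lists were not tested against each other.

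Atp6v0d2 is also known from osteoclasts and macrophages. The summed RPKM of 16 macrophage and osteoclast genes was 4798 in the bound and 4852 in the unbound library of the third day 14 mouse, against 685 and 879 in the other day 14 bound libraries and 1254 and 1571 in the other unbound ones. Atp6v0d2 was highest in the same libraries, at 27.0 RPKM in bound and 29.0 RPKM in unbound RNA. Of the listed genes, Ocstamp and Mmp9 had 0.127 and 3.97 RPKM in the bound library of the third day 14 mouse. In its unbound library they had 0.185 and 1.67 RPKM. Lyz2 reached 1112 and 1086 RPKM in these libraries. Values of Acp5, Ctsk and Dcstamp, also on the list, are not given here, so osteoclast genes are not covered as a set. In that mouse's bound library Atp6v1c2 and Foxi1 were high as well. The part of these cells in the Atp6v0d2 values was not tested.

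**Figure D5:**
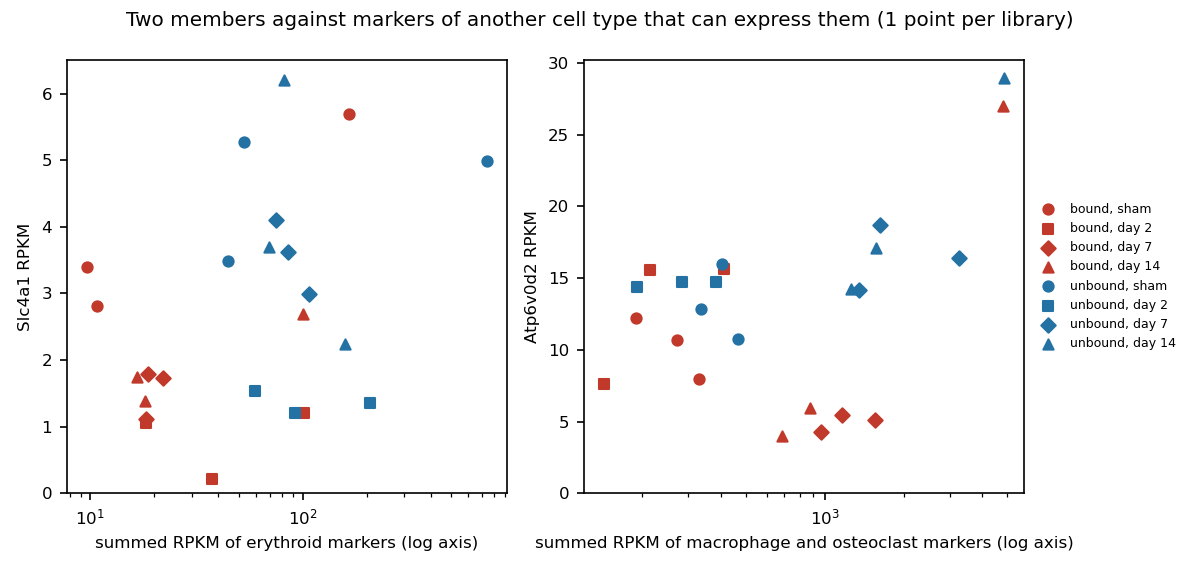
Left: Slc4a1 RPKM against the summed RPKM of erythroid genes. Right: Atp6v0d2 RPKM against the summed RPKM of macrophage and osteoclast genes. Horizontal axes are logarithmic, each point is 1 of 24 libraries, color gives the fraction and shape the time. The sham unbound library with an erythroid sum of 735 has 4.99 RPKM of Slc4a1, between the other sham unbound libraries, and the third day 14 mouse lies at the upper right of the right panel in both fractions.

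Across the 12 unbound libraries the members varied together to differing degrees. As a description across libraries that share groups, Pearson's r of log2 values had a median of 0.53 over the 36 pairs of members and ran from -0.20 to 0.87. Across the 12 bound libraries the median was 0.55 and the range -0.39 to 0.90. The genes whose pattern was most like the mean of the standardised members in unbound RNA, over 12 libraries and 6729 ranked genes, were Rprd1b (r = 0.94), Wwp2 (0.93), Rhcg (0.92), Ckb (0.90), Kcnj1 (0.90), Acadsb (0.90), Slc25a36 (0.89) and Ap5s1 (0.89). In bound RNA, over 12 libraries and 7018 ranked genes, they were Fam168a (0.95), Pygb (0.94), Pygl (0.94), Gimap6 (0.94), Slc12a1 (0.94), Rasip1 (0.93), Ehd3 (0.93) and Exoc2 (0.92). The lists of 8 from the 2 fractions shared no gene.

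The order of levels over all 8 groups differed between members. For Atp6v1b1 sham bound RNA came first at 45.5 ± 24.2 RPKM and was apart from the next group, day 2 bound RNA at 14.0 ± 10.7 RPKM. From there down to day 2 unbound RNA at 5.96 ± 2.13 RPKM each group overlapped its neighbour. For Atp6v1g3 the sham, day 14 and day 7 unbound groups came first at 100.3, 91.9 and 90.2 RPKM and overlapped each other, day 2 unbound RNA followed at 47.5 ± 7.53 RPKM, and the 4 bound groups lay below it at 19.5 to 29.1 RPKM, all overlapping their neighbours. For Slc4a1 sham unbound, day 14 unbound, sham bound and day 7 unbound RNA overlapped their neighbours at 4.59 to 3.57 RPKM, and the means of day 14 bound RNA at 1.94 ± 0.672 RPKM, day 7 bound RNA at 1.55 ± 0.374 RPKM, day 2 unbound RNA at 1.37 ± 0.164 RPKM and day 2 bound RNA at 0.825 ± 0.539 RPKM lay below. Day 14 bound RNA, at up to 2.69 RPKM, still overlapped day 14 unbound RNA, which went down to 2.24 RPKM.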

How the data were processed

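RNA was measured in 24 mouse kidney libraries. Per the submitters' processing notes, the authors used STAR 2.0.4b, featureCounts 1.4.5 of the Subread package and edgeR; versions of the last pair and the genome build are not given in these sources. The table the authors deposited holds RPKM, normalised for gene length and mapped reads. Of its 41831 lines, 1081 repeated another identifier with identical values and were dropped, which left 40750 genes; all 24 value columns were mapped to samples by their labels. Read counts were not used here. With exon lengths of GENCODE M21, 71.9% to 78.2% of the low values (at most 50 reads) lay within 0.02 of a whole read, where chance gives 4%, which put the depths at 15.72 to 24.65 (median 20.23) in units of 1e6 reads. Those lengths may not be the ones the authors used.

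The 13721 genes that reached 1 RPKM in 3 or more libraries were tested. Values were taken as log2(RPKM + 0.5), and limma 3.58.1 (R 4.3.3) estimated the 8 group means with moderated variances that follow abundance, without a block. Benjamini-Hochberg adjustment ran over all tested genes, with calls at adjusted p under 0.05. The procedure was tested on simulated data, with libraries drawn independently and with the same spread in every group. That simulation held neither the pairing of fractions within a mouse nor a deviating mouse like the third of day 14. The 9 genes, the other lists and the tests were chosen with earlier results of these data known. Named genes are the 9 members, up to 4 genes of each other list with the smallest p in a comparison, the paralogs of the pump members, and the 8 genes most correlated with the members' mean in each fraction (mean of at least 5 RPKM, predicted genes without a name passed over). Of the listed other genes Rhbg and Ahsp were not analysed here. Reads of overlapping or near-identical genes cannot be separated in this table.

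Pairing was checked by correlating deviations from the group means. In bound and unbound libraries with the same number r was 0.27 to 0.67, against at most 0.31 with other numbers, so the numbers pair the fractions of a mouse. Different times are different mice, and there r was -0.37 to 0.34. Alternatives were pseudocounts of 0.1 and 1, no filter (26077 genes) and a filter of 5 RPKM (8782 genes), median-ratio rescaling, quantile normalization, no variance trend, a replicate block (the mouse between fractions, the library number within a fraction between times), fits on the libraries compared alone, leaving out each library, and leaving out the third day 14 mouse.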

Additional observations from a re-analysis of the deposited data

Results flagged for a closer look

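The change of Atp6v1b1 against sham differed between bound and unbound RNA when the mouse was fitted as a replicate block. At day 7 the difference, bound minus unbound, was -2.42 on the log2 scale (limma, adjusted p = 0.0223), and at day 14 it was -2.27 (adjusted p = 0.0199). Without the block the differences were the same and the adjusted p-values were 0.107 and 0.106; over the 33 settings at day 7 they ran from 0.0118 to 0.243, and over the 34 at day 14 from 0.0115 to 0.332. Behind them stand 10.7, 9.36 and 5.64 RPKM in day 7 bound and 11.9, 7.29 and 20.4 RPKM in day 14 bound libraries, against 32.0, 31.1 and 73.4 RPKM in sham bound libraries, while unbound libraries held 3.87 to 14.0 RPKM throughout. All 6 bound libraries of day 7 and day 14 were below all sham bound ones. In sham bound RNA 6 of 10 tested principal cell genes were also higher than in unbound RNA, and their part in the difference was not tested. When each of the 24 libraries was left out in turn, the difference passed in 3 of these fits at day 7 and in 2 at day 14.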

How the results depend on the processing

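Of the 9 genes, the number called moved by over 1.5 times in these settings, given by comparison. Counts over all genes moved in many settings too, as given further below, and moves particular to the members were not tested. Unbound day 2 against sham had 3, and 1 with no filter. Bound day 7 against sham had 5, then 3 with no filter and 2 in a fit of bound libraries alone. Bound day 14 against sham had 1, then 2 with the filter of 5 RPKM or quantile normalization, 3 with median-ratio rescaling, 5 without the third day 14 mouse and 0 in a fit of bound libraries alone. Unbound day 14 against day 2 had 1, then 5 in a fit of unbound libraries alone and 0 with a pseudocount of 0.1, no filter, the filter of 5 RPKM, either rescaling or the replicate block. Bound day 14 against day 2 had 0, and 3 without that mouse. Bound against unbound at day 7 had 4, then 2 with no filter or no variance trend and 8 in a fit of day 7 alone, which called 2133 of all genes against 323. At day 14 it had 2, then 5 with the replicate block, 6 without the third mouse and 0 in a fit of day 14 alone. The difference between fractions had 0 at day 7, then 1 with the replicate block and 3 in a fit of sham and day 7 alone, and 0 at day 14, then 1 with the block and 2 without the third mouse. The fits of fewer libraries have fewer degrees of freedom, and the filters change the number of genes tested; the cause of the other moves was not tested.

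Leaving out each library in turn gave 1 to 4 members for unbound day 2, 2 to 4 for bound day 2, 2 to 6 for bound day 7, 0 to 5 for bound day 14, 0 to 1 for unbound and 0 to 3 for bound day 14 against day 2, 1 to 7 for bound against unbound at day 7 and at day 14, and 0 to 2 and 0 to 3 for the difference between fractions at day 7 and day 14. For the comparisons of unbound day 7 and day 14 with sham, bound with unbound in sham and at day 2, and the difference at day 2, the count of members did not move. Over all genes it was 18 to 536, 9 to 1024, 2699 to 4293, 57 to 1191 and 0 to 111 in that order. For comparisons of times the block was the library number within a fraction, which links different mice only by label; apart from the calls given here and in the report, it changed the call of Atp6v1g3 in unbound RNA at day 2 (adjusted p = 0.0581; 0.00262 to 0.163 over all settings) and of Slc4a1 in unbound RNA at day 14 against day 2 (adjusted p = 0.0532; 0.00824 to 0.239).

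Of all member values under the alternatives, 65 changed sign, and none of these was called in either setting. With median-ratio rescaling they were Atp6v0d2 in unbound RNA at day 2 (-0.06), Atp6v1b1 in unbound RNA at day 7 (-0.08; -0.03 with quantile normalization) and Aqp6 in bound RNA at day 14 (-0.11; -0.09). Without the third mouse they were Atp6v1g3 (0.01), Atp6v1c2 (0.13) and Slc4a1 (0.08) in unbound and Aqp6 (-0.21) in bound RNA at day 14 against sham, and Atp6v1b1 (-0.31), Atp6v1c2 (-0.20) and Slc4a9 (-0.36) in bound RNA at day 14 against day 2. Leaving out single libraries, the ranges that crossed 0 were, in unbound RNA at day 2, Aqp6 -0.51 to 0.08 and Foxi1 -0.31 to 0.19, at day 7, Atp6v1b1 -0.02 to 0.31, Aqp6 -0.07 to 0.52, Atp6v1g3 -0.24 to 0.02 and Foxi1 -0.26 to 0.24, and at day 14, Atp6v1g3 -0.30 to 0.03, Atp6v1c2 -0.23 to 0.24 and Slc4a1 -0.57 to 0.08. In bound RNA they were Atp6v1g3 -0.43 to 0.29 at day 2, Aqp6 -0.32 to 0.11 at day 7, and at day 14 Aqp6 -0.21 to 0.30, Atp6v0d2 -0.98 to 0.33 and Foxi1 -0.81 to 0.02. In bound day 14 against day 2 they were Slc4a9 -0.36 to 0.25, Atp6v1b1 -0.37 to 0.62, Atp6v1g3 -0.69 to 0.06, Slc26a4 -0.57 to 0.23, Atp6v0d2 -1.25 to 0.06 and Atp6v1c2 -0.20 to 0.86. In bound against unbound RNA they were Slc4a9 -0.56 to 0.05 in sham, Atp6v0d2 -0.40 to 0.09, Slc26a4 -0.57 to 0.23, Slc4a9 -0.46 to 0.00 and Foxi1 0.00 to 0.33 at day 2, and Atp6v1b1 -0.52 to 0.19 at day 14. In the difference between fractions they were Slc4a9 -0.27 to 0.34, Atp6v0d2 -0.05 to 0.44 and Slc4a1 -0.60 to 0.03 at day 2, and Atp6v1g3 -0.68 to 0.04 at day 14.

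Counts over all genes moved too. Fits of the compared libraries alone gave 3708 against 2030 for unbound day 2, 576 against 150 and 1192 against 169 for unbound day 7 and day 14, 1159 against 2718, 1091 against 3116 and 154 against 1824 for bound day 2, day 7 and day 14, 1400 against 679 and 397 against 911 for day 14 against day 2 in unbound and bound RNA, 0, 2133 and 39 against 230, 323 and 112 for bound against unbound at day 2, day 7 and day 14, and 913 and 1 against 20 and 27 for the difference between fractions at day 7 and day 14. The replicate block gave 1304, 1563 and 359 for bound against unbound at day 2, day 7 and day 14, and 722 and 862 for those differences. No filter gave 53, 58, 145, 13 and 5 for unbound day 7, unbound day 14, bound against unbound at day 2, and the differences at day 7 and day 14, and 1 against 0 for the difference at day 2. A pseudocount of 1 gave 108 for unbound day 14 and one of 0.1 gave 13 for the day 7 difference. Median-ratio rescaling gave 13 and 9 for the differences at day 7 and day 14, and quantile normalization 14 at day 14. Without the third mouse the counts were 88 for unbound day 14, 2855 for bound day 14, 2365 for bound day 14 against day 2 and 691 for the day 14 difference. The share of calls that were lower than sham was 34.0%, 16.7% and 20.1% at day 2, day 7 and day 14 in unbound RNA and 32.7%, 33.2% and 34.5% in bound RNA, against 49.8%, 25.1% and 33.5%, and 52.8%, 52.8% and 58.6%, after median-ratio rescaling.

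Groups of 3 and a median depth of 20.23 in units of 1e6 reads limit what can be seen, with standard errors of 0.30 to 0.43 for a member's fold, and Slc4a1 at 0.21 RPKM rested on 18 inferred reads.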
